A study of Homo sapiens with 12 samples.

Results

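The 37 genes described here encode the machinery of the lysosome: 5 lysosomal membrane proteins, 9 lysosomal proteases, 9 glycosidases, 2 sulfatases, 7 hydrolases and proteins that handle lipids, 3 proteins of the mannose 6-phosphate sorting route and 2 transcription factors of the MiT/TFE family. They were chosen from a list of gene symbols written for this description, without a cut on measured values. Positions of genes are given on GRCh38 from the GENCODE annotation. All 37 were found among the 59276 features of the deposited table, and all 37 were among the 11939 features that were abundant enough to be tested.

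Lysosomes are acidic compartments in which proteins, glycans and lipids are broken down and their building blocks recovered. Most lysosomal hydrolases and membrane proteins are N-glycoproteins: the oligosaccharyltransferase (OST) complex attaches their glycans in the endoplasmic reticulum, and on soluble hydrolases these glycans are later tagged with mannose 6-phosphate, which receptors in the Golgi recognise and carry to the lysosome. NGI-1 blocks the OST complex, and the transcription factors TFEB and TFE3 can raise the transcription of many lysosomal genes. The question asked here was how the transcripts of this glycoprotein-rich set of genes changed while the OST complex was inhibited.

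Total RNA was sequenced from MM1S cells, a human multiple myeloma line, in 12 libraries that fall into 4 groups of 3, namely NGI-1 for 0, 2, 3 and 5 days. The study used 10 μM NGI-1. The day 0 libraries carry NGI-1 as their treatment label too, while the study's text calls such cells untreated, control or DMSO, so neither a DMSO addition nor the time of their harvest is settled. No library of untreated cells exists for the later days among the samples used here, the 3 treated groups share the same day 0 libraries, and nothing states that the 3 libraries of a group came from separate cultures, so p-values measure the spread between libraries, which may be technical.

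Values are TPM, a share of the library's transcripts corrected for transcript length, which allows levels of different genes to be compared. TPM keeps no read counts, so the depth behind each value is unknown and the precision is that of the 3 libraries of a group. Changes are given as log2 fold changes of TPM + 1 from limma with Benjamini-Hochberg adjustment over all tested features, and a gene was called lower or higher at an adjusted p under 0.05 with a log2 fold change over 0.5 in size. Over all tested features the median change was below 0 on each day, at -0.18, -0.73 and -0.99 on the log2 scale for days 2, 3 and 5. Each change is therefore also given after rescaling, in which every library was divided by 1 factor that centred its moderately and highly expressed features. In bulk RNA, fewer cells that carry a transcript and less transcript per cell cannot be told apart. Of 12 plasma cell and myeloma markers, 11 reached 1 TPM in at least 1 library, none of the 8 markers of monocytes and macrophages did, and their summed level was at most 0.745 TPM in any library. None of 4 B cell markers reached 1 TPM, 1 of 5 markers of T and NK cells did (CD3E, between 2.75 and 7.22 TPM), and so did 1 of 6 markers of fibroblasts and epithelium (KRT18, between 3.86 and 19.8 TPM).

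At day 2 the lysosomal genes stood above the rest of the transcriptome. The median log2 fold change of the 37 genes was 0.15, which was 0.33 above the median of all tested features. On the deposited scale 5 genes were called higher, namely CTSS, SGSH, PSAP, TPP1 and MAN2B1, or 13.5% of the 37 against 8.04% of all tested features. GLA and CTSL, 5.41% of the 37, were called lower against 23.2% of all features. After rescaling 15 genes, or 40.5%, were called higher against 12.9% of all features, and GLA alone, 2.70%, was called lower against 11.4%. For 18 of the 37 genes every day 2 library lay above every day 0 library on the deposited scale, for 9 every one lay below, and for 10 the groups overlapped. Over all tested features 16.9% lay above and 44.1% below in this way.

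By day 3 most of these transcripts had a lower share of the library. The genes called lower numbered 23, or 62.2% of the 37, against 61.5% of all tested features, and only CTSS was called higher (2.70% against 7.59%). At day 5 the counts were 26 lower and 1 higher, or 70.3% and 2.70%, against 69.8% and 7.73% of all features. The share of lysosomal genes called lower was thus close to that of all features on both days. On the deposited scale the medians of the 37 genes, -0.65 and -0.92, lay 0.080 and 0.065 above those of all features. After rescaling these distances were 0.22 and 0.28, and they also moved under other settings, as given below. Rescaling turned the balance: at day 3 there were 2 genes lower and 10 higher, or 5.41% and 27.03%, against 24.2% and 23.9% of all features, and at day 5 there were 5 lower and 14 higher, or 13.5% and 37.8%, against 26.9% and 27.5%.

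Of the 26 genes called lower at day 5 on the deposited scale, 5 were also called lower after rescaling, 18 were then not called and 3, MAN2B1, NEU1 and NPC2, were called higher. The 5 that were lower on both scales were GLA, PPT1, CTSC, GUSB and SCARB2, and CTSS was the only gene higher on both. The plot of all 37 changes on both scales shows this shift and the outer position of CTSS and GLA. Together the 37 genes took 0.142% ± 0.00359 (SD, n = 3) of the day 0 TPM, a share that was 0.163% ± 0.00739 by day 2, 0.0946% ± 0.00957 by day 3 and 0.0807% ± 0.0121 by day 5 (SD, n = 3 each). The 3 libraries of day 2 lay above those of day 0 and the libraries of day 3 and day 5 below them, with an overlap between day 3 and day 5.

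**Figure D1:**
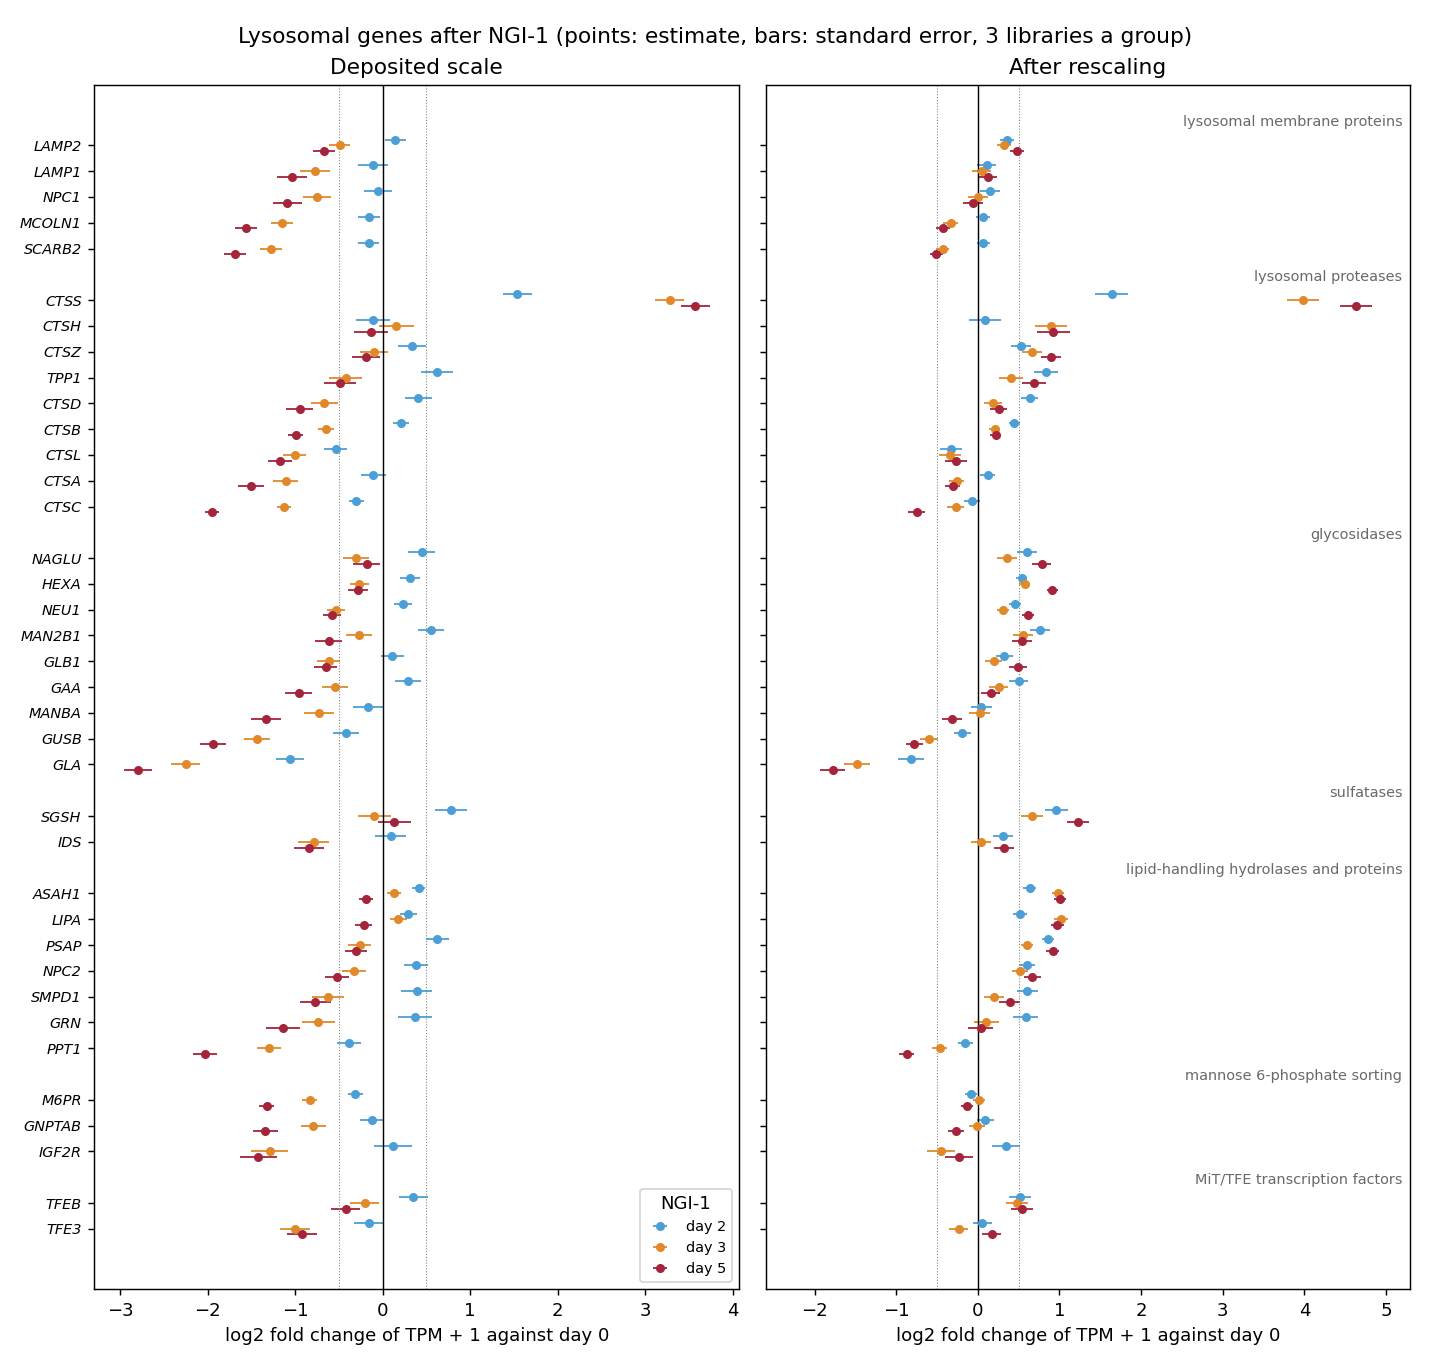
Log2 fold changes of TPM + 1 against day 0 for the 37 lysosomal genes, grouped by role, on the deposited scale (left) and after rescaling (right), with points for the limma estimate at day 2, 3 and 5, bars for its standard error (3 libraries a group) and dotted lines at the threshold of 0.5. CTSS lies far to the right and GLA far to the left on both scales, while most other genes move from below 0 on the left panel to around or above 0 on the right panel at day 3 and day 5.

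**Figure D2:**
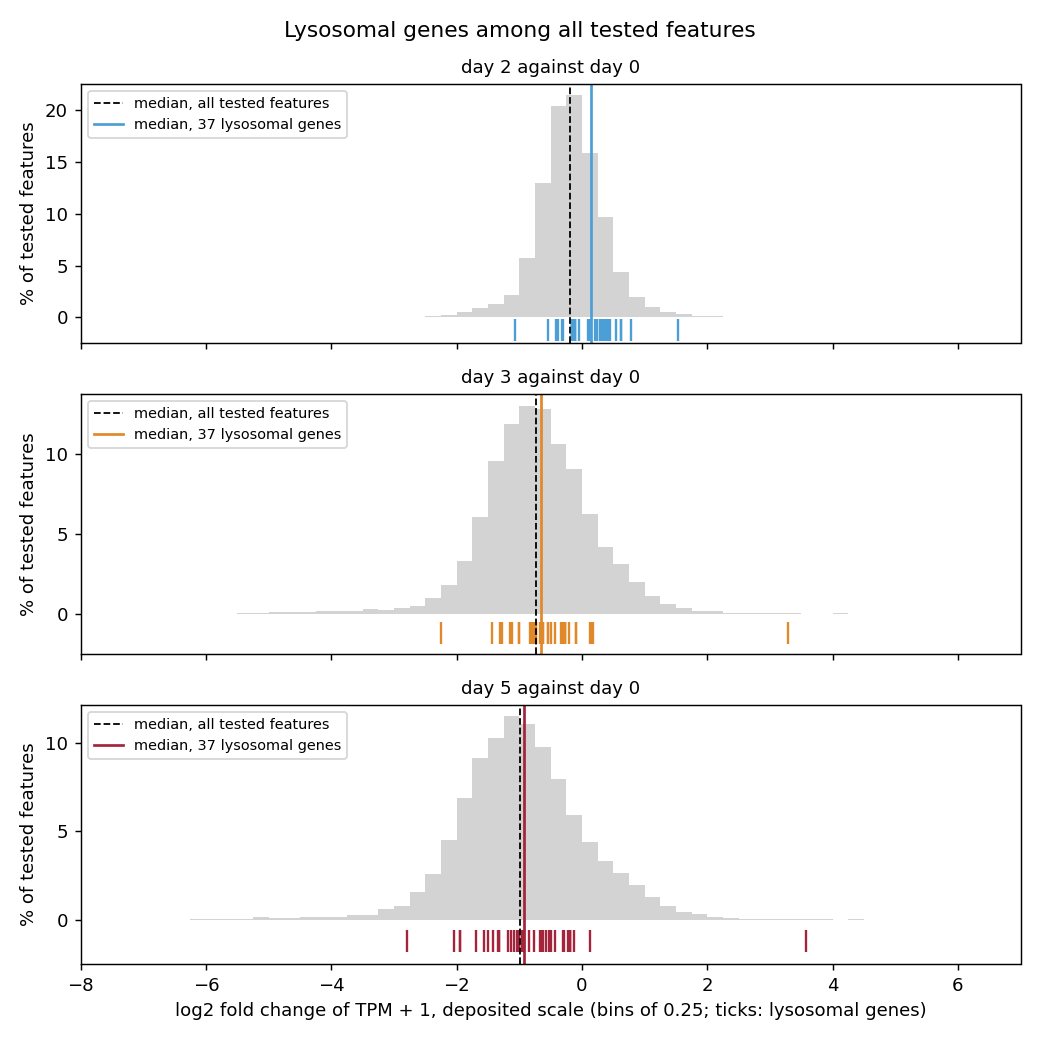
Histograms of the log2 fold changes of TPM + 1 of all 11939 tested features against day 0 on the deposited scale, in bins of 0.25 as a percent of tested features, with a tick for each of the 37 lysosomal genes and lines at the medians. The lysosomal median lies 0.33 above the median of all features at day 2, and 0.080 and 0.065 above it at day 3 and day 5. After rescaling, which is not drawn, these distances are 0.35, 0.22 and 0.28.

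TFEB and TFE3 bind a short palindrome, CACGTG, that in lysosomal promoters is often preceded by GT, as GTCACGTG. The promoters of 28 of the 37 genes (250 bases before to 50 after the start, RefSeq sequences on GRCh38.p14) were searched on both strands for these letters, and every GTCACGTG match also contains a CACGTG match. CACGTG was present in 7 of the 28 promoters, or 25%, against 7.44% of all 27305 promoters of this length and 10.8% of the 8941 promoters of tested features. GTCACGTG was present in 6 of 28, or 21.4%, against 2.53% and 4.80%. The promoters with CACGTG belonged to LAMP1 with 6 sites, IGF2R with 3, MCOLN1, CTSA and GAA with 2 each, and CTSD and NEU1 with 1 each. The sequences of LAMP1, CTSD and GAA are shown because their matches differ in number and arrangement, and that of GLA because its transcript fell most. Capitals mark matches to GTCACGTG read on either strand, and each sequence is given 5′ to 3′ on its gene's strand. LAMP1 (chr13:113296989-113297288, plus strand) carries 4 of them upstream and 2 near its start, CTSD (chr11:1763878-1764177, minus strand) has 1, GAA (chr17:80101331-80101630, plus strand) has the letters on both strands at 2 places, and GLA (chrX:101407876-101408175, minus strand) has neither motif in this window.
LAMP1: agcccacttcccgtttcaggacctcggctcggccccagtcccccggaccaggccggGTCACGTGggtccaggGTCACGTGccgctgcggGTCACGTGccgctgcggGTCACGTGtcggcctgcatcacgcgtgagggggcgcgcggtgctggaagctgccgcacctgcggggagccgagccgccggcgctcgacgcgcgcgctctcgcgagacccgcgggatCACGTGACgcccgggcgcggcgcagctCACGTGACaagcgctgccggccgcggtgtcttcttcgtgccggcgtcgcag
CTSD: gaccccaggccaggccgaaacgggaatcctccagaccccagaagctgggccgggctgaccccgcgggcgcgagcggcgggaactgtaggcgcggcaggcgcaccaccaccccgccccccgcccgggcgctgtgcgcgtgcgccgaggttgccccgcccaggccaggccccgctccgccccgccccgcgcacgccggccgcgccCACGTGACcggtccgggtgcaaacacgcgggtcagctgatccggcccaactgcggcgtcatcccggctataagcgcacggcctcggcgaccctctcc
GAA: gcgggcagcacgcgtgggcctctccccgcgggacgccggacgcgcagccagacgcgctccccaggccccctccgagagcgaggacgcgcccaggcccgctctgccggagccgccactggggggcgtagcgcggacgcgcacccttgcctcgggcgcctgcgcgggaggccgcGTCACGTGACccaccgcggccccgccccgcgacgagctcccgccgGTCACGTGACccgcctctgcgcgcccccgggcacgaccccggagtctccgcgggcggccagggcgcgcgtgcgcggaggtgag
GLA: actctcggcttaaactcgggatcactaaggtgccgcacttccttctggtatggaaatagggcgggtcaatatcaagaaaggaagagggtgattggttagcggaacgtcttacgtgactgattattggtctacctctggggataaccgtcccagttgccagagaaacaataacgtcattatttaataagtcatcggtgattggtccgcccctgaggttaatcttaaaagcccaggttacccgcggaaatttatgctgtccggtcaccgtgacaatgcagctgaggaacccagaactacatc

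LAMP2, CTSB, CTSS, HEXA, MANBA, NAGLU, SGSH, PSAP and ASAH1 were not among the promoters searched. Of these, CTSS, SGSH and PSAP were called higher at day 2 on the deposited scale, so whether they carry the motifs is unknown here. Among the genes searched, those with these letters lay on both sides of 0 at day 2. Their log2 fold changes then ran from -0.16 for MCOLN1 to 0.40 for CTSD. None of the 7 was called on the deposited scale, against 23.2% lower and 8.04% higher of all tested features. CTSD alone was called higher after rescaling, against 12.9% of all features. At day 5 all 7 were called lower on the deposited scale, from -1.56 for MCOLN1 to -0.58 for NEU1, against 69.8% of all tested features. After rescaling they ran from -0.43 to 0.61, and NEU1 alone was called, as higher. Of all features 26.9% were then called lower and 27.5% higher. A match is a description of the sequence, and binding was not measured.

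The lysosomal membrane proteins fell with the bulk of the transcriptome. None of the 5 was called at day 2, against 23.2% lower and 8.04% higher of all tested features. Day 3 brought 4 calls of lower and day 5 all 5, against 61.5% and 69.8% of all features. After rescaling only SCARB2 was called, lower at day 5, or 20% against 26.9%. LAMP1 and LAMP2 are the heavily glycosylated proteins that line the lysosomal membrane. Their mean levels at day 0 were 24.9 and 19.1 TPM, and at day 5 they were 11.98 and 11.8 TPM. The log2 fold changes at day 5 were -1.03 and -0.67 on the deposited scale and 0.12 and 0.48 after rescaling. NPC1, which exports cholesterol from the lysosome, changed by -1.09 at day 5 and by -0.06 after rescaling, and MCOLN1, a calcium channel of the lysosomal membrane, by -1.56 and -0.43.

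SCARB2 (chr4:76158733-76234536) carries glucocerebrosidase to the lysosome and was the most abundant of these 5 genes at day 0. Its libraries measured 48.6, 54.9 and 51.96 TPM at day 0, then 46.2, 44.7 and 47.7 TPM at day 2, 18.7, 24.2 and 19.8 TPM at day 3 and 13.7, 14.04 and 18.8 TPM at day 5. Every library of day 3 and day 5 lay below those of day 0 and day 2, and the day 2 libraries lay below those of day 0. The log2 fold change at day 3 was -1.28 (SE 0.125, adjusted p = 6.54e-07) in limma with Benjamini-Hochberg adjustment, and at day 5 it was -1.69 (SE 0.125, adjusted p = 2.22e-08). After rescaling the day 5 change was -0.51 (SE 0.0825, adjusted p = 0.000103), just past the threshold of 0.5.

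On the deposited scale the lysosomal proteases held both the only gene of the 37 that was called higher on all 3 days and several large falls. CTSS, which encodes cathepsin S, a cysteine protease best known for trimming the invariant chain during antigen presentation, rose on each day. CTSS (chr1:150730196-150765957) measured 2.69, 3.04 and 4.11 TPM at day 0, then 12.8, 12.5 and 8.98 TPM at day 2, 39.7, 35.1 and 46.7 TPM at day 3 and 54.6, 52.7 and 42.3 TPM at day 5. Each treated library lay above every day 0 library, and the libraries of day 5 and day 3 overlapped. Its mean TPM was 3.48 times that of day 0 at day 2, 12.3 times at day 3 and 15.2 times at day 5. The log2 fold change of CTSS in limma was 1.54 (SE 0.165, adjusted p = 7.57e-06) at day 2, 3.28 (SE 0.165, adjusted p = 1.03e-09) at day 3 and 3.58 (SE 0.165, adjusted p = 2.44e-10) at day 5, all with Benjamini-Hochberg adjustment. After rescaling these changes were 1.64, 3.98 and 4.63. On the deposited scale the day 5 change of CTSS exceeded that of 99.9% of all tested features. At day 0 CTSS had the lowest mean TPM of the 37 genes, and by day 5 its mean was exceeded only by PSAP and CTSB, although its day 5 libraries overlapped those of CTSD. CTSS is also abundant in macrophages, whose 8 markers were near or at 0 in every library. The cause of the rise of CTSS was not tested.

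CTSB and CTSD were the most abundant proteases. CTSB, the cysteine protease cathepsin B on chromosome 8 (chr8:11842524-11869448), measured 158, 149.9 and 159 TPM at day 0, then 173, 194 and 175 TPM at day 2, 103, 102 and 91.4 TPM at day 3 and 69.9, 76.6 and 86.8 TPM at day 5. Day 2 lay above day 0, and the libraries of day 3 and day 5 lay below it without overlap. Its log2 fold change was 0.21 at day 2, -0.65 at day 3 and -0.996 (SE 0.0902, adjusted p = 1.62e-07) at day 5 in limma with Benjamini-Hochberg adjustment, and after rescaling it was 0.44, 0.21 and 0.22, none of them called. CTSD, the aspartic protease cathepsin D (chr11:1752752-1764573), measured 88.5, 76.2 and 79.6 TPM at day 0, then 105, 122 and 98.1 TPM at day 2, 44.8, 61.1 and 47.6 TPM at day 3 and 33.6, 40.8 and 52.7 TPM at day 5. Here too day 2 lay above day 0 and the later days below it, with 1 day 5 library (replicate 3) inside the range of day 3. CTSD changed by 0.40, -0.67 and -0.95, and after rescaling by 0.63, which was called, and then 0.18 and 0.26, which were not.

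CTSC and CTSA fell further. CTSC (chr11:88293592-88337787), the dipeptidyl peptidase cathepsin C, which activates granule serine proteases, measured 97.9, 105 and 93.4 TPM at day 0, then 79.4, 79.4 and 80.9 TPM at day 2, 41.6, 47.9 and 44.4 TPM at day 3 and 25.3, 25.3 and 23.8 TPM at day 5. The 4 groups did not overlap and the level was lower at each later day. In limma with Benjamini-Hochberg adjustment its log2 fold change was -0.30 at day 2, -1.13 at day 3 and -1.95 (SE 0.0819, adjusted p = 9.51e-11) at day 5, and only the change at day 5 was also called after rescaling, at -0.75 (SE 0.101, adjusted p = 2.05e-05). CTSA (chr20:45890144-45898820), a carboxypeptidase that also protects the sialidase NEU1 and the galactosidase GLB1, measured 83.9, 75.7 and 76.97 TPM at day 0, then 74.6, 76.01 and 68.5 TPM at day 2, 35.3, 40.7 and 32.2 TPM at day 3 and 22.6, 24.3 and 36.1 TPM at day 5. Its day 0 and day 2 libraries overlapped and lay above all later ones. CTSA changed by -1.11 at day 3 and -1.51 at day 5, and by -0.26 and -0.31 after rescaling, which was not called.

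CTSH and CTSZ, 2 less abundant cysteine proteases with exopeptidase activity, were called on no day on the deposited scale. CTSH (chr15:78921058-78949574) measured 5.23, 6.70 and 8.24 TPM at day 0, then 6.51, 4.52 and 7.53 TPM at day 2, 8.86, 8.35 and 5.66 TPM at day 3 and 6.58, 5.61 and 5.70 TPM at day 5. The groups overlapped on every day. CTSZ (chr20:58995185-59007247) measured 8.16, 8.06 and 9.34 TPM at day 0, then 12.2, 10.4 and 10.3 TPM at day 2, 8.24, 8.78 and 6.76 TPM at day 3 and 5.39, 8.16 and 8.93 TPM at day 5. Its day 2 libraries lay above those of day 0, and later days overlapped day 0. At day 5 the log2 fold changes were -0.13 and -0.19, not called, and after rescaling both were called higher, at 0.93 (SE 0.197, adjusted p = 0.000927) and 0.90 (SE 0.122, adjusted p = 2.2e-05) in limma with Benjamini-Hochberg adjustment.

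The remaining proteases were TPP1 and CTSL. TPP1, a tripeptidyl peptidase, rose from 27.9 to 43.5 TPM at day 2, a log2 difference of 0.62 (SE 0.184, adjusted p = 0.015) in limma with Benjamini-Hochberg adjustment. Its call at day 2 was lost without replicate 2 or replicate 3 of day 0 or replicate 2 of day 2, with an adjusted p of 0.0555, 0.0538 and 0.0725. At day 5 TPP1 was at -0.49 on the deposited scale, not called, and at 0.69 after rescaling, called higher. CTSL, the cysteine protease cathepsin L, was the least abundant of the 37 genes over all libraries. Its mean was 5.03 TPM at day 0 and 3.16, 2.01 and 1.68 TPM at the later days. CTSL was called lower at day 2 at -0.54, a call that was lost without replicate 3 of day 2, where the change was -0.45, and it was not called at any day after rescaling.

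**Figure D3:**
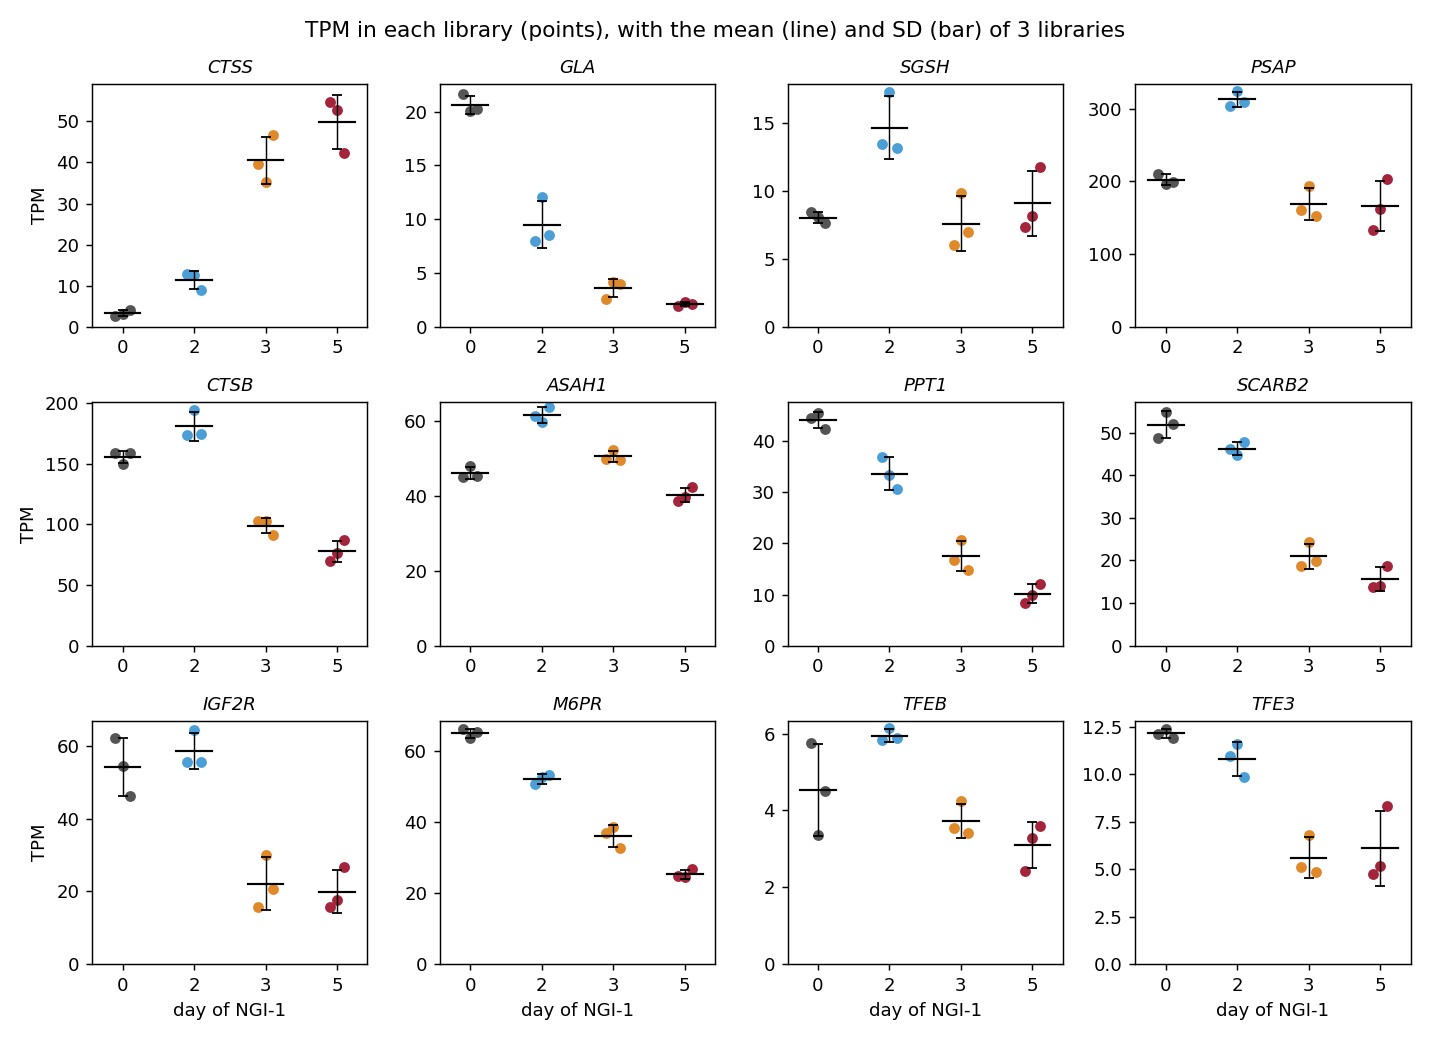
TPM in each library at day 0, 2, 3 and 5 of NGI-1 for 12 of the lysosomal genes, each on its own axis from 0, with a point per library, a line for the mean and a bar for the SD of 3 libraries. CTSS climbs from 3.28 to 49.9 TPM and GLA drops from 20.6 to 2.11 TPM. The means of PSAP, SGSH, CTSB, ASAH1, IGF2R and TFEB peak at day 2, where IGF2R overlaps day 0. In every gene shown except CTSS and GLA the highest day 5 point is replicate 3.

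Among the glycosidases, which cleave sugars from glycoproteins and glycolipids, GLA and GUSB fell on both scales while 4 others were called higher at day 5 after rescaling. After rescaling 22.2% of the 9 were thus lower and 44.4% higher at day 5, against 26.9% and 27.5% of all tested features. GLA (chrX:101397803-101408012) encodes alpha-galactosidase A, the enzyme deficient in Fabry disease. GLA measured 21.6, 20.1 and 20.2 TPM at day 0, then 7.94, 12.04 and 8.53 TPM at day 2, 2.62, 4.17 and 3.98 TPM at day 3 and 1.93, 2.32 and 2.09 TPM at day 5. The 4 groups did not overlap, and each later day lay lower. The mean at day 5 was 0.102 times that at day 0. Its log2 fold change in limma with Benjamini-Hochberg adjustment was -1.06 (SE 0.164, adjusted p = 0.000171) at day 2, -2.25 (SE 0.164, adjusted p = 3.94e-08) at day 3 and -2.80 (SE 0.164, adjusted p = 2.29e-09) at day 5, and after rescaling it was -0.82, -1.48 and -1.78, each called. Only 2.91% of all tested features had as low a change at day 5 on the deposited scale. The promoter of GLA shown above contains neither motif.

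GUSB (chr7:65960684-65982314), beta-glucuronidase, measured 43.4, 42.5 and 46.7 TPM at day 0, then 32.6, 35.8 and 30.3 TPM at day 2, 13.6, 17.4 and 16.5 TPM at day 3 and 8.85, 9.80 and 14.2 TPM at day 5. No treated library overlapped those of day 0, and replicate 3 of day 5 reached into the range of day 3. The log2 fold change was -0.42 at day 2, -1.43 at day 3 and -1.94 (SE 0.149, adjusted p = 3.1e-08) at day 5 in limma with Benjamini-Hochberg adjustment, and after rescaling the last 2 were -0.60 and -0.78, both called. The table lists 12 pseudogene copies of GUSB by symbol, whose summed mean was 18.2 TPM at day 0 and 10.4 TPM at day 5, so reads may be split between them and its level is uncertain.

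MAN2B1, NEU1 and NAGLU had their highest mean at day 2, as did HEXA, GAA and GLB1. MAN2B1 (chr19:12646511-12666742), the lysosomal alpha-mannosidase, measured 20.5, 17.8 and 24.7 TPM at day 0, then 36.1, 30.02 and 27.5 TPM at day 2, 15.8, 20.2 and 15.7 TPM at day 3 and 12.4, 11.98 and 15.5 TPM at day 5. Every day 2 library lay above and every day 5 library below those of day 0. It was called higher at day 2 at 0.55 (SE 0.151, adjusted p = 0.00919) and lower at day 5 at -0.62 (SE 0.151, adjusted p = 0.00162) in limma with Benjamini-Hochberg adjustment, whereas after rescaling it was called higher on both days, at 0.76 and 0.54. The day 2 call on the deposited scale was lost at a change of 0.44 without replicate 2 of day 0 or without replicate 1 of day 2.

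NEU1 (chr6:31857659-31862906), a sialidase, measured 43.1, 39.7 and 40.8 TPM at day 0, then 44.8, 51.8 and 49.5 TPM at day 2, 26.6, 30.6 and 27.2 TPM at day 3 and 24.1, 27.04 and 31.04 TPM at day 5. Day 2 lay above day 0 and the later days below it. Its changes of -0.54 at day 3 and -0.58 at day 5 were called lower on the deposited scale, and both fell below the threshold when replicate 1 of the same day was left out, at -0.499 and -0.493. After rescaling they were 0.31, not called, and 0.61, called higher. NAGLU (chr17:42536172-42544449), which degrades heparan sulfate, measured 4.87, 3.83 and 3.66 TPM at day 0, then 5.44, 6.43 and 5.99 TPM at day 2, 2.82, 3.26 and 3.28 TPM at day 3 and 2.79, 3.27 and 4.54 TPM at day 5. The day 2 libraries lay above those of day 0, day 3 lay below and day 5 overlapped. NAGLU was at 0.45 at day 2 and -0.19 at day 5, neither called, and was called higher on both days after rescaling, at 0.60 and 0.78. Its day 2 change passed the threshold without replicate 1 of day 0, at 0.55, or without replicate 1 of day 2, at 0.5006.

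The other 4 glycosidases were HEXA, GLB1, GAA and MANBA. HEXA, a subunit of beta-hexosaminidase, had a mean of 37.6 TPM at day 0 and 30.9 TPM at day 5, was called on no day on the deposited scale and was called higher on all 3 days after rescaling, at 0.54, 0.58 and 0.91. GLB1, a beta-galactosidase, was called lower at day 3 and day 5, at -0.62 and -0.65, and stood at 0.496 after rescaling at day 5. GAA, the acid alpha-glucosidase that degrades glycogen, was called lower at -0.54 and -0.96 on these days, and without replicate 1 of day 3 the day 3 call was lost at -0.41. MANBA, a beta-mannosidase, was called lower at -0.73 and -1.33. None of GLB1, GAA and MANBA was called on any day after rescaling.

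SGSH and IDS are sulfatases that take part in the breakdown of heparan sulfate. SGSH (chr17:80206716-80220923) measured 8.41, 8.04 and 7.63 TPM at day 0, then 13.4, 17.3 and 13.1 TPM at day 2, 5.99, 9.84 and 6.95 TPM at day 3 and 7.31, 8.13 and 11.8 TPM at day 5. Its day 2 libraries lay above every day 0 library, while the day 3 and day 5 libraries overlapped day 0. The log2 fold change in limma with Benjamini-Hochberg adjustment was 0.78 (SE 0.185, adjusted p = 0.0038) at day 2, -0.10 at day 3 and 0.13 at day 5, and after rescaling it was 0.96, 0.66 and 1.23, all called higher. In rescaled TPM the libraries of SGSH measured 5.65, 5.34 and 5.08 on day 0, 10.6, 13.3 and 10.46 on day 2, 7.41, 11.04 and 9.05 on day 3 and 12.8, 13.1 and 15.9 on day 5, with every treated library above day 0. IDS fell at day 3 and day 5 on the deposited scale, at -0.79 and -0.84, and was not called after rescaling, at 0.03 and 0.32.

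The 7 genes that handle lipids had the highest median log2 fold change at day 2 of any role with more than 2 genes, at 0.38 on the deposited scale and 0.60 after rescaling. On the deposited scale only PSAP was called higher at that day, or 14.3% against 8.04% of all tested features. After rescaling 6 of the 7 were, all but PPT1, or 85.7% against 12.9%. At day 5, 4 of the 7, or 57.1%, were called lower on the deposited scale against 69.8% of all tested features, and after rescaling 1 was lower and 4 higher, or 14.3% and 57.1%, against 26.9% and 27.5%.

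PSAP (chr10:71816298-71851375), the precursor of the saposins that help hydrolases act on sphingolipids, was the most abundant of the 37 genes. PSAP measured 211, 197 and 199 TPM at day 0, then 303, 325 and 309.5 TPM at day 2, 161, 194 and 152 TPM at day 3 and 133, 162 and 203 TPM at day 5. The day 2 libraries lay above all others, day 3 lay below day 0, and replicate 3 of day 5 reached into the range of day 0. Its log2 fold change was 0.63 (SE 0.127, adjusted p = 0.0014) at day 2 in limma with Benjamini-Hochberg adjustment, and -0.26 and -0.30 at day 3 and day 5, not called. After rescaling PSAP was called higher on all 3 days, at 0.86, 0.60 and 0.92.

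ASAH1 (chr8:18055992-18084998), acid ceramidase, measured 44.97, 47.9 and 45.2 TPM at day 0, then 61.4, 59.6 and 63.7 TPM at day 2, 49.7, 52.3 and 49.5 TPM at day 3 and 38.5, 39.8 and 42.3 TPM at day 5. Day 2 and day 3 lay above day 0 and day 5 below it, without overlap. The log2 fold changes of 0.41, 0.13 and -0.19 were under the threshold of 0.5 on the deposited scale, and after rescaling they were 0.64, 0.98 and 1.01, all called higher. LIPA, the lysosomal acid lipase, had means of 37.99, 46.7, 43.1 and 32.6 TPM and rescaled changes of 0.52, 1.02 and 0.98, all called higher. In rescaled TPM the libraries of ASAH1 measured 30.2, 31.9 and 30.1 on day 0, 48.3, 45.9 and 50.6 on day 2, 61.5, 58.7 and 64.4 on day 3 and 67.1, 64.1 and 57.3 on day 5.

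NPC2 (chr14:74476192-74494177), which binds cholesterol and hands it to NPC1, measured 40.7, 34.03 and 46.4 TPM at day 0, then 51.5, 53.8 and 51.5 TPM at day 2, 30.8, 36.6 and 28.3 TPM at day 3 and 24.9, 25.2 and 33.4 TPM at day 5. Its day 2 libraries lay above and its day 5 libraries below every day 0 library, and day 3 overlapped day 0. The log2 fold change was 0.38 at day 2, not called, and -0.52 (SE 0.138, adjusted p = 0.0029) at day 5 in limma with Benjamini-Hochberg adjustment, while after rescaling both were called higher, at 0.60 and 0.67. The day 5 call on the deposited scale was lost without replicate 3 of day 0, replicate 1 of day 5 or replicate 2 of day 5, at -0.42, -0.45 and -0.46.

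PPT1 (chr1:40071461-40097727), which removes palmitate from proteins, was the exception among these genes. PPT1 measured 44.6, 45.5 and 42.5 TPM at day 0, then 37.04, 33.4 and 30.6 TPM at day 2, 16.9, 20.7 and 14.9 TPM at day 3 and 8.36, 9.97 and 12.1 TPM at day 5. The 4 groups did not overlap and the level was lower at each later day. In limma with Benjamini-Hochberg adjustment its log2 fold change was -0.39 at day 2, -1.30 (SE 0.138, adjusted p = 1.33e-06) at day 3 and -2.03 (SE 0.138, adjusted p = 9.75e-09) at day 5, and after rescaling it was -0.46 at day 3, not called, and -0.87 (SE 0.0913, adjusted p = 1.96e-06) at day 5. SMPD1, acid sphingomyelinase, and GRN, the progranulin precursor, were called lower at day 3 and day 5 on the deposited scale, at -0.77 and -1.14 on day 5, and were called higher after rescaling at day 2 only, at 0.60 and 0.59. GRN was also called higher on the deposited scale at day 2, at 0.53, when replicate 1 of day 0 was left out.

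The 3 genes of mannose 6-phosphate sorting were not called at day 2 and were all called lower at day 3 and day 5 on the deposited scale, and none was called on these days after rescaling. Of all tested features 61.5% and 69.8% were called lower on these days on the deposited scale, and 23.2% at day 2. After rescaling 24.2% of all features were lower and 23.9% higher at day 3, and 26.9% and 27.5% at day 5. M6PR (chr12:8940363-8949955), the small cation-dependent mannose 6-phosphate receptor, measured 66.1, 63.5 and 65.3 TPM at day 0, then 50.6, 52.6 and 53.2 TPM at day 2, 36.97, 38.6 and 32.7 TPM at day 3 and 24.7, 24.5 and 26.7 TPM at day 5. The 4 groups did not overlap. Its log2 fold change was -0.31 at day 2, -0.83 at day 3 and -1.33 (SE 0.0850, adjusted p = 5.41e-09) at day 5 in limma with Benjamini-Hochberg adjustment, and -0.13 after rescaling at day 5. GNPTAB, which encodes the subunits of the enzyme that makes the mannose 6-phosphate tag, went from 12.8 TPM at day 0 to 4.47 TPM at day 5, a change of -1.34, or -0.27 after rescaling.

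IGF2R (chr6:159969099-160113507), the large cation-independent receptor, which also binds insulin-like growth factor II, measured 62.1, 54.6 and 46.1 TPM at day 0, then 55.7, 64.4 and 55.7 TPM at day 2, 15.7, 30.1 and 20.6 TPM at day 3 and 15.8, 17.5 and 26.6 TPM at day 5. Day 2 overlapped day 0, and every library of day 3 and day 5 lay below both. Its log2 fold change was 0.12 at day 2, -1.29 (SE 0.214, adjusted p = 8.12e-05) at day 3 and -1.42 (SE 0.214, adjusted p = 2.64e-05) at day 5 in limma with Benjamini-Hochberg adjustment. After rescaling these were 0.34, -0.45 and -0.23, none of them called.

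TFEB and TFE3, the factors that drive lysosomal genes, were among the less abundant transcripts. TFEB (chr6:41683978-41736259) measured 5.75, 3.36 and 4.50 TPM at day 0, then 5.83, 6.14 and 5.88 TPM at day 2, 3.54, 4.24 and 3.43 TPM at day 3 and 2.42, 3.28 and 3.60 TPM at day 5. The day 2 libraries lay above those of day 0 and the day 3 and day 5 libraries overlapped day 0. TFEB was at 0.35 at day 2 and -0.42 at day 5 on the deposited scale, neither called, and after rescaling it was called higher on both days, at 0.51 and 0.54. On the deposited scale it was called higher at day 2 without replicate 1 of day 0, at 0.5045, and lower at day 5 without replicate 2 of day 0, at -0.58, or without replicate 3 of day 5, at -0.51.

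TFE3 (chrX:49028726-49043486) measured 12.1, 12.4 and 11.9 TPM at day 0, then 10.9, 11.6 and 9.82 TPM at day 2, 5.11, 6.82 and 4.84 TPM at day 3 and 4.77, 5.17 and 8.33 TPM at day 5. All later libraries lay below day 0. The change at day 2 was -0.16, and TFE3 was called lower at day 3 and day 5, at -1.01 (SE 0.171, adjusted p = 0.000102) and -0.92 (SE 0.171, adjusted p = 0.000174) in limma with Benjamini-Hochberg adjustment, and on neither day after rescaling, at -0.23 and 0.17. The transcript level does not report on the activity of either factor, which depends on its location in the cell.

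Most of the fall on the deposited scale lay between day 2 and day 3. On the deposited scale 31 of the 37 genes, or 83.8%, were called lower at day 3 than at day 2, against 55.5% of all tested features, and 1, CTSS, or 2.70%, was called higher against 3.22%. The median of the 37 genes was -0.82, against -0.57 for all features. After rescaling 2 genes, GLA and IGF2R, or 5.41%, were called lower against 13.6%, and 3, CTSS, CTSH and LIPA, or 8.11%, were called higher against 14.3%. The glycosidases were all called lower from day 2 to day 3 on the deposited scale, from -1.19 for GLA to -0.56 for MANBA, and after rescaling GLA alone was.

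From day 3 to day 5 the changes were smaller. On the deposited scale 6 genes, CTSC, PPT1, MANBA, GNPTAB, GLA and GUSB, or 16.2%, were called lower against 13.1% of all features, and no gene was called higher against 0.67%. The changes of CTSC and PPT1 were -0.82 and -0.73. After rescaling no gene was called lower against 2.03%, and SGSH alone, 2.70%, was called higher against 4.43%. The count of 6 rested on single libraries: it was 13 without replicate 3 of day 5, 2 without replicate 2 of day 3 or without replicate 1 of day 5, and 3 without replicate 2 of day 5.

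Single libraries also stood toward other groups. Replicate 3 of day 5 held the highest value of its group in 33 of the 37 genes, and replicate 2 of day 3 in 31. Without both, 25 genes were called lower at day 3 and 28 at day 5, against 23 and 26 with them, and 1 was called higher on either day. The same 2 libraries had the largest rescaling factors of their groups, 0.891 and 0.738. At day 2 the 5 genes called higher became 8 without replicate 1 of day 0 and 3 without replicate 2 of day 0. The shares of all tested features called were not computed for fits that left libraries out.

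Other lysosomal genes were counted in 5 lists. The V-ATPase is the proton pump that acidifies the lysosome. Of its 16 tested subunits, 0, 10 and 11 were called lower on days 2, 3 and 5, while 1, 2 and 1 were called higher. The lower shares of 62.5% and 68.75% at day 3 and day 5 were close to the 61.5% and 69.8% of all tested features. At day 2 the lower share was 0% against 23.2%. The higher shares of 6.25%, 12.5% and 6.25% on days 2, 3 and 5 stood beside 8.04%, 7.59% and 7.73%. After rescaling 2 were lower and 5 higher at day 5, or 12.5% and 31.25%, against 26.9% and 27.5% of all features. The largest rise at day 5 was 1.11 for ATP6V1G1 and the largest fall -1.92 for ATP6V1A, both subunits of the cytosolic part of the pump, and after rescaling these were 2.33 and -0.79.

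Of 35 further hydrolases and activators 34 were tested, and the calls of lower rose from 5 on day 2 to 18 on day 3 and 20 on day 5, while those of higher went from 11 to 5 and 3. The lower shares were 14.7%, 52.9% and 58.8%, against 23.2%, 61.5% and 69.8% of all tested features. The higher shares were 32.4%, 14.7% and 8.82%, against 8.04%, 7.59% and 7.73%. After rescaling, day 2 had 2 lower and 17 higher, or 5.88% and 50% against 11.4% and 12.9% of all features. Day 5 had 6 lower and 15 higher, or 17.6% and 44.1% against 26.9% and 27.5%. At the extremes of day 5 stood CTSF, the cysteine protease cathepsin F, at 1.19, and IFI30, a thiol reductase that acts in antigen processing, at -2.83. After rescaling they stood at 2.26 and -1.63. CTSS and IFI30, which both act on antigens in the lysosome, thus changed in opposite directions.

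Of 26 further membrane proteins and transporters 24 were tested, with 0, 8 and 12 called lower on the successive days and 6, 3 and 3 called higher. The lower shares of 0%, 33.3% and 50% stood beside 23.2%, 61.5% and 69.8% of all tested features. The higher shares of 25%, 12.5% and 12.5% stood beside 8.04%, 7.59% and 7.73%. After rescaling 8 were higher and none lower at day 2, or 33.3% and 0% against 12.9% and 11.4% of all features. At day 5, 13 were higher and 2 lower, or 54.2% and 8.33% against 27.5% and 26.9%. TMEM59 had the largest rise at day 5, at 1.18, and MFSD8, a multipass protein of the lysosomal membrane, the largest fall, at -1.70. After rescaling these were 2.40 and -0.58.

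Of 25 further genes of sorting to the lysosome 24 were tested, with 5, 19 and 21 called lower on days 2, 3 and 5 and 1 called higher on each day. The lower shares were 20.8%, 79.2% and 87.5%, against 23.2%, 61.5% and 69.8% of all tested features. The higher share was 4.17% on each day, against 8.04%, 7.59% and 7.73%. After rescaling 11 were called lower at day 5 and 4 higher, or 45.8% and 16.7% against 26.9% and 27.5%. GGA2, an adaptor that binds the mannose 6-phosphate receptors at the Golgi, fell most, at -2.27, and GNPTG, the further subunit of the enzyme that makes the mannose 6-phosphate tag, rose at 0.58 while GNPTAB fell. After rescaling the changes of GGA2 and GNPTG were -1.12 and 1.65.

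All 21 genes of TFEB control by mTORC1, the kinase complex that holds TFEB in the cytosol when nutrients are ample, were tested. Of these 1, 16 and 17 were called lower on days 2, 3 and 5, and 0, 1 and 2 higher. The lower shares of 4.76%, 76.2% and 80.95% stood beside 23.2%, 61.5% and 69.8% of all tested features. The higher shares of 0%, 4.76% and 9.52% stood beside 8.04%, 7.59% and 7.73%. After rescaling 1 was lower and 4 higher at day 5, or 4.76% and 19.05% against 26.9% and 27.5%. LAMTOR3, a part of the Ragulator complex that anchors mTORC1 to the lysosome, had the largest rise, at 0.999, and MTOR, the kinase itself, the largest fall, at -1.55, and after rescaling they stood at 2.18 and -0.496, the latter not called.

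**Figure D4:**
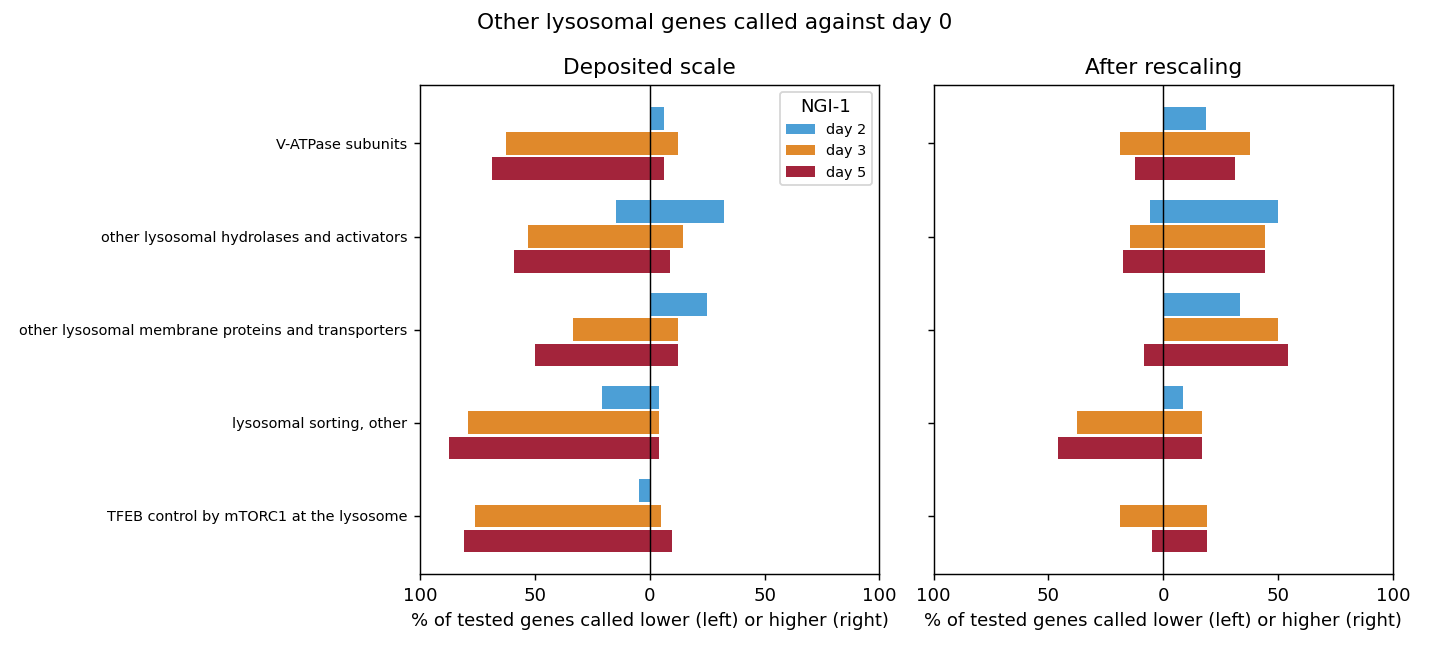
Percent of tested genes called lower (to the left of 0) or higher (to the right) against day 0 at day 2, 3 and 5 of NGI-1 in 5 lists of other lysosomal genes, on the deposited scale (left) and after rescaling (right). The bars to the left at day 3 and day 5 shrink after rescaling in every list. After it 11 of 24 sorting genes were called lower at day 5, or 45.8% against 26.9% of all tested features.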

How the data were processed

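The authors deposited one table of log2 values of TPM plus 1 for 59276 features, listed by gene symbol. The submitters' processing notes name FastQC, Trimmomatic, STAR, Salmon and hg38; their versions, the annotation and the strand setting are not given in the sources used here. TPM is a length-corrected share of transcripts, as the authors computed it, and had the same sum in every library.

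The 11939 features that reached a TPM of 1 in 3 or more libraries were fitted with limma 3.58.1 (R 4.3.3) on the deposited log2 scale, in 1 model with a mean per group, allowing the variance to follow the mean. Tests are two-sided with Benjamini-Hochberg adjustment per contrast. The script was tested on simulated data. Rescaling divided each library by 1 factor, which brought to 0 the median of its log2(TPM + 1) differences from the 12-library mean, taken across 5433 features averaging 10 TPM or more. Figures were drawn with matplotlib 3.10.9. Gene positions come from GENCODE release 29 (GRCh38) by symbol, and promoters from RefSeq (GRCh38.p14) for 28 of the 37 genes.

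Members, lists and tests were chosen with earlier results of these data known. Values of every library are given for the 6 most abundant genes and the 5 highest and 5 lowest deposited-scale changes at day 5. They are also given for genes called in opposite directions on the 2 scales, the mannose 6-phosphate receptors, TFEB and TFE3. For the other lists the largest rise and fall at day 5 are named. Further genes were named after their values were seen. Alternatives were rescaling, TPM without the 20 most abundant features, a pseudocount of 0.1, no filter, a TPM minimum of 5, pairwise fits, no trend, a log2 fold threshold of 1 and leaving out each library. Leaving out replicate 2 of day 3 and replicate 3 of day 5 together was added after seeing the data. No sample was left out of the main results.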

Additional observations from a re-analysis of the deposited data

Results flagged for a closer look

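The effects of NGI-1 at day 2 and at day 3 share the day 0 libraries, and their difference is the contrast of day 3 against day 2. In limma with Benjamini-Hochberg adjustment 31 of the 37 genes were called lower in that contrast and 1 higher on the deposited scale. These were 83.8% and 2.70%, against 55.5% and 3.22% of all tested features. IGF2R, GLA and CTSS are given here because they were called in the same direction on both scales. MAN2B1 is given because its calls at day 2 and day 5 were opposite. IGF2R differed by -1.41 (SE 0.214, adjusted p = 8.34e-05) on the log2 scale, or -0.79 after rescaling, with 55.7 to 64.4 TPM at day 2 and 15.7 to 30.1 TPM at day 3. GLA differed by -1.19 (SE 0.164, adjusted p = 4.11e-05), or -0.65 after rescaling. CTSS differed by 1.75 (SE 0.165, adjusted p = 2.95e-06), or 2.34 after rescaling. MAN2B1, called higher at day 2 and lower at day 5, differed by -0.82 (SE 0.151, adjusted p = 0.000322), and after rescaling by -0.21, which was not called. Its -0.82 was also the median of the 37 genes in this contrast.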

How the results depend on the processing

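Rescaling was the alternative that turned the most directions. Over 115 results of single genes against day 0 and between days it gave the opposite sign in 52, kept sign and call in 29, lost 20 calls and gained 14 without a change of sign. At day 2 the log2 fold changes that turned, none of them called on either scale, were 0.11 for LAMP1, 0.066 for SCARB2, 0.15 for NPC1, 0.064 for MCOLN1, 0.12 for CTSA, 0.089 for CTSH, 0.042 for MANBA, 0.091 for GNPTAB and 0.054 for TFE3. At day 3 they were 0.047 for LAMP1, 0.32 for LAMP2, 0.41 for TPP1, 0.36 for NAGLU, 0.48 for TFEB, 0.21 for CTSB, 0.18 for CTSD, 0.67 for CTSZ, 0.58 for HEXA, 0.26 for GAA, 0.19 for GLB1, 0.55 for MAN2B1, 0.021 for MANBA, 0.31 for NEU1, 0.033 for IDS, 0.66 for SGSH, 0.52 for NPC2, 0.60 for PSAP, 0.20 for SMPD1, 0.10 for GRN and 0.02 for M6PR. At day 5 they were 0.12 for LAMP1, 0.48 for LAMP2, 0.22 for CTSB, 0.26 for CTSD, 0.93 for CTSH, 0.90 for CTSZ, 0.69 for TPP1, 0.91 for HEXA, 0.16 for GAA, 0.496 for GLB1, 0.54 for MAN2B1, 0.61 for NEU1, 0.78 for NAGLU, 0.32 for IDS, 0.67 for NPC2, 0.92 for PSAP, 1.01 for ASAH1, 0.98 for LIPA, 0.39 for SMPD1, 0.037 for GRN, 0.54 for TFEB and 0.17 for TFE3. These changes follow from dividing each library by its factor.

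The counts of lysosomal genes called moved as follows. Shares of all tested features were computed only for the main fit and for rescaling, and are given above. Under the other settings, including libraries left out, a shift in counts can therefore not be read as particular to the lysosomal genes. Under rescaling, lower and higher counts were 1 and 15 at day 2, 2 and 10 at day 3, 5 and 14 at day 5, 2 and 3 from day 2 to day 3, and 0 and 1 from day 3 to day 5. With a threshold of 1, the lower counts were 1, 10 and 15 at day 2, 3 and 5, 9 from day 2 to day 3 and 0 from day 3 to day 5, and the higher count at day 2 was 1. Without the 20 most abundant features, or with a TPM minimum of 5, where CTSL was not tested, 1 gene was lower at day 2. The former also left 16 lower at day 3, 20 at day 5, 26 from day 2 to day 3 and 5 from day 3 to day 5, with 14 single-gene calls lost and 2 gained, and it turned the sign of 10 uncalled changes, to 0.033 for NPC1 at day 2, 0.13 for CTSZ and 0.13 for SGSH at day 3, and at day 5 to 0.15 for CTSH, 0.10 for CTSZ, 0.032 for HEXA, 0.073 for NAGLU, 0.017 for PSAP, 0.13 for ASAH1 and 0.098 for LIPA. From day 3 to day 5, 3 genes were lower with no filter and 2 in the pairwise fit.

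The median of the lysosomal genes minus that of all tested features was 0.22 at day 3 and 0.28 at day 5 under rescaling, 0.22 and 0.26 with a pseudocount of 0.1, -0.61 and -0.87 with no filter, and 0.25 and 0.32 with a TPM minimum of 5. At day 2 it was 0.15 with no filter and 0.43 with a minimum of 5. With no filter the many features near 0 TPM enter the median of all features. The cause of the other shifts was not tested.

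Leaving out each library in turn lost 12 calls and gained 11 among 1380 single-gene values. It turned the sign of 7 uncalled values, 2 of them for CTSH at day 2, which lay between -0.25 and 0.071 and was also 0.031. The others lay between -0.28 and 0.0060 for CTSH at day 5, -0.28 and 0.041 for SGSH at day 3, -0.050 and 0.26 for SGSH at day 5, -0.17 and 0.0010 for CTSZ at day 3, and -0.31 and 0.0051 for CTSZ at day 5. The counts then lay between 1 and 2 lower and 3 and 8 higher at day 2, 21 and 25 lower at day 3, 24 and 28 lower at day 5, with 1 higher in every fit of day 3 and day 5, between 29 and 32 lower and 1 higher from day 2 to day 3, and between 2 and 13 lower and 0 higher from day 3 to day 5. The median difference lay between 0.32 and 0.41 on day 2, 0.017 and 0.13 on day 3, and 0.012 and 0.13 on day 5. Leaving out replicate 2 of day 3 and replicate 3 of day 5 together, chosen after seeing the data, left 25 lower at day 3, 28 at day 5 and 6 from day 3 to day 5, and put SGSH at day 5 at -0.050.

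No paired analysis was possible because the library names carry no replicate number that groups share. TPM keeps no counts, so counting error could not be given, and 3 libraries a group set the precision. A group left with 2 libraries was assumed to vary like the others.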
